A study of Homo sapiens with 6 samples.

Results

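The genes described here drive and police cell division: 48 protein-coding genes for mitotic kinases and cyclins, kinesin motors, checkpoint and kinetochore proteins and their partners. They were taken by name from the 58735 genes in the deposited tables, where each name matched 1 protein-coding gene, and all 48 were among the 15289 genes abundant enough to be tested (a mean of at least 0.5 FPKM, fragments scaled to gene length and library total, over the 6 libraries). RNA of the triple-negative breast cancer line MDA-MB-231 was sequenced in 3 libraries titled Vector and 3 titled CB, which are called CB1 here. The Vector libraries carry DMSO as their treatment label and the others carry CB1, and the design text sets vehicle against overexpression of CB1, the cannabinoid receptor encoded by CNR1. The study's methods describe a line that overexpressed CB1 stably after transduction with a lentiviral pCDH construct, and for its lentiviral lines selection with puromycin and pooled clones. No source says if vehicle was given to the CB1 libraries too. The receptor, the line and the vehicle therefore cannot be told apart, and because separate cultures are not mentioned either, p-values reflect only how far these libraries differ among themselves, a spread that may be technical.

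A cell enters mitosis when cyclin B switches on the kinase CDK1. The Polo and Aurora kinases then build the spindle, condense the chromosomes and correct faulty attachments, kinesins move along and trim the microtubules, and kinetochores tie each chromosome to them. Until every kinetochore is attached, the spindle assembly checkpoint holds back CDC20, the activator of the anaphase-promoting complex. That complex is the ubiquitin ligase that marks securin and cyclin B for destruction and so lets sister chromatids part. Transcripts of most of these genes rise together in the G2 and M phases. In that wave the MuvB complex with B-MYB and FOXM1 is known to act at a promoter element called the CHR, often with NF-Y at a CCAAT box nearby. Fast-growing tumours express these genes strongly, so their summed level is commonly read as a measure of proliferation.

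Total counts ran from 16957881 to 17447521 in the Vector libraries and from 17804240 to 18833661 in the CB1 libraries, and the common coefficient of biological variation was 8.51%. CNR1 had 7, 6 and 4 counts in Vector and 6465, 7703 and 7353 counts in CB1. Of the markers of MDA-MB-231 (VIM, CD44, CAV1, AXL and MSN), 3 of 5 passed as higher and none as lower in CB1, with summed levels of 4396 to 4493 CPM (counts per 1000000 of the scaled library) in Vector and 5308 to 5453 CPM in CB1. ESR1 and PGR, the hormone receptors the line lacks, had at most 15 counts in any library, whereas ERBB2, at a mean of 83.99 CPM in Vector and 86.9 CPM in CB1, was not absent. A list of 8 genes of embryonic kidney lines, of the kind used to make lentivirus, summed to 7.65 to 8.76 CPM in Vector and 23.0 to 25.3 CPM in CB1. Of its 4 tested genes NEFL, NEFM and INA were higher and SOX2 was lower in CB1. The 4 below the abundance minimum were not tested. Of these, LIN28B had 11, 7 and 8 counts in Vector and 72, 60 and 106 counts in CB1. PAX2 had 2, 0 and 1 counts in Vector and 15, 8 and 11 counts in CB1. EYA1 had 73, 67 and 57 counts in Vector against 44, 58 and 43 counts in CB1. Its means were 3.73 CPM in Vector and 2.73 CPM in CB1. SOX11 was at 0 in every library. CDKN2A, a gene known to be deleted in MDA-MB-231 and looked at because of its values, had means of 1.33 CPM in Vector and 22.04 CPM in CB1. The part of these transcripts in the values of the mitotic genes was not tested.

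Promoters of members that changed most are shown first, because the members are known as a group that is switched on together through short promoter elements. A promoter sequence from RefSeq (GRCh38.p14), from 250 bases before to 50 bases after the start site, was matched by symbol for 41 of the 48 genes. AURKA, BIRC5, BUB3, FOXM1, TPX2, TTK and UBE2C are the other 7. Capitals mark the letters TTTGAA or the letters TTTAAA for the CHR and the letters CCAAT for the CCAAT box. For an E2F site the letters TTCGCGC were sought, or alternatively TTGGCGC, or the variant TTCCCGC, or the variant TTGCCGC. Both strands were searched, so TTCAAA for the CHR, ATTGG for the CCAAT box and the other reverse complements are marked too. All 5 windows read 5′ to 3′ on the plus strand. The first 2 belong to genes among those with the largest rise in CB1 libraries and the last 3 to the matched genes with the largest fall: CDC20 at chr1:43358731-43359030, PLK1 at chr16:23678639-23678938, PLK4 at chr4:127880643-127880942, ECT2 at chr3:172750476-172750775 and CENPF at chr1:214602945-214603244.
CDC20: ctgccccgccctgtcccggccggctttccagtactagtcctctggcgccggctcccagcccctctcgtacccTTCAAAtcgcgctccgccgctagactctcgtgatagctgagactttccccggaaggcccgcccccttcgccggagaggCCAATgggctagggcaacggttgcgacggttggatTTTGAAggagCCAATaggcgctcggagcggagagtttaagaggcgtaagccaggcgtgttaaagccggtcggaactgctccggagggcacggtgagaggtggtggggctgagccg
PLK1: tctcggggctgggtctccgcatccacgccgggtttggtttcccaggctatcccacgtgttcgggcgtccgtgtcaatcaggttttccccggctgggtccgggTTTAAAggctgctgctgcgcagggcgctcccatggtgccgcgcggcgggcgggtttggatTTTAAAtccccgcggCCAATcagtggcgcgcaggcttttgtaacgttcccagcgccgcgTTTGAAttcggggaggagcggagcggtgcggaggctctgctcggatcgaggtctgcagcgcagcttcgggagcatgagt
PLK4: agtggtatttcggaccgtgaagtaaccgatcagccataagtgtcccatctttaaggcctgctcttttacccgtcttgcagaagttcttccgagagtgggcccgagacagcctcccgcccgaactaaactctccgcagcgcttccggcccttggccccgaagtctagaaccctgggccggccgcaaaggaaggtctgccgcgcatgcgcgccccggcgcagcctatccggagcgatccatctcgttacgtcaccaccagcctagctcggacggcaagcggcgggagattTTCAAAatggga
ECT2: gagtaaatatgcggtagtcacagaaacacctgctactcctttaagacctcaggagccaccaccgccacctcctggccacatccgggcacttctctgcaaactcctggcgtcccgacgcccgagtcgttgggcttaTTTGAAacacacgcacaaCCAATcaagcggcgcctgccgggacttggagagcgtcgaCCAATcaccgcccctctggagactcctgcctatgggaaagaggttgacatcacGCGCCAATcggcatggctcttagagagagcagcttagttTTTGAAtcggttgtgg
CENPF: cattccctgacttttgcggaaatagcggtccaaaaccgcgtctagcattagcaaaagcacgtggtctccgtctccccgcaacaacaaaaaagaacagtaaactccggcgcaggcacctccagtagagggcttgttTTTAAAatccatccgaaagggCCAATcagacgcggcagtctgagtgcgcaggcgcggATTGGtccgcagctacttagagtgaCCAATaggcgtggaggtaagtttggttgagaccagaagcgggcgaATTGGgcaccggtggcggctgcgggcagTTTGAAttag

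Each of the 5 windows held at least 1 match to the CHR letters. In CDC20 a CHR match began 65 bases before the start site and a CCAAT box 55 bases before it, and in PLK1 these were 29 and 73 bases before it. The start site of the PLK1 window lies 1233 bases from the 5′ end that the deposited tables give for the gene, against at most 44 bases for the other 4. PLK4 held a single match, TTCAAA, which lay after the start site, and no CCAAT box. ECT2 and CENPF each held 2 CHR matches, 1 upstream and 1 downstream of the start, together with 3 and 4 CCAAT boxes. The E2F match in ECT2 shares its letters with a CCAAT box. Over the 41 matched genes, 35 (85.4%, 95% Wilson interval 71.6 to 93.1) held the CHR letters, beside 19.3% of 14895 protein-coding genes with 1 window each and 23.99% of all 35116 windows of that length. CCAAT was found in 31 of 41 (75.6%) beside 36.4% and 34.6%, and an E2F site in 12 of 41 (29.3%) beside 17.3% and 12.97%. These shares describe letters in a window, not bound sites. CHR letters stood in 9 of 13 matched genes that rose in CB1 and 14 of 15 that fell, and CCAAT in 11 of 13 and 8 of 15. The CHR match was thus common to genes that moved in opposite directions.

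The comparison of CB1 with Vector asked whether transcripts of the mitotic genes differed when the receptor was overexpressed. They did not move one way. At an edgeR adjusted p under 0.05, 18 of the 48 genes rose, led by the F-box cyclin CCNF at 2.03-fold, the anaphase activator CDC20 at 1.92-fold and the Polo kinase PLK1 at 1.71-fold, and 17 fell, led by the centriole kinase PLK4 at 1.56-fold, the cytokinesis factor ECT2 at 1.49-fold and the kinetochore protein CENPF at 1.48-fold. The 35 genes called are 72.9% of the members, beside 49.8% of all genes tested, of which 24.4% were higher and 25.4% lower. The members were abundant, since 47 had a mean of at least 20 CPM, and among all genes of that abundance 61.6% were called. The median log2 change was 0.01 over the members and -0.0020 over all genes tested. Changes were small, with 6 members past 1.5-fold and 1 of them, CCNF, past 2-fold. Between the groups, 20 members did not overlap with CB1 higher and 18 with CB1 lower, beside 28.6% and 30.2% of all genes. The balance of rises and falls depended on the scaling, with 12 higher and 21 lower on FPKM rescaled to TPM (values that sum to the same total in every library) and 10 higher and 19 lower on quantile-normalized FPKM, both tested with limma. On TPM the whole transcriptome shifted alike, with a median log2 change of -0.12 over all genes, of which 16.8% were higher and 30.9% lower, and on quantile-normalized FPKM 21.9% of all genes were higher and 24.6% lower. Without CB1 replicate 2, edgeR called 14 members higher and 11 lower, beside 21.4% and 22.2% of all genes. In bulk RNA, fewer cells in a phase of the cycle and less RNA per cell cannot be told apart.

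**Figure D1:**
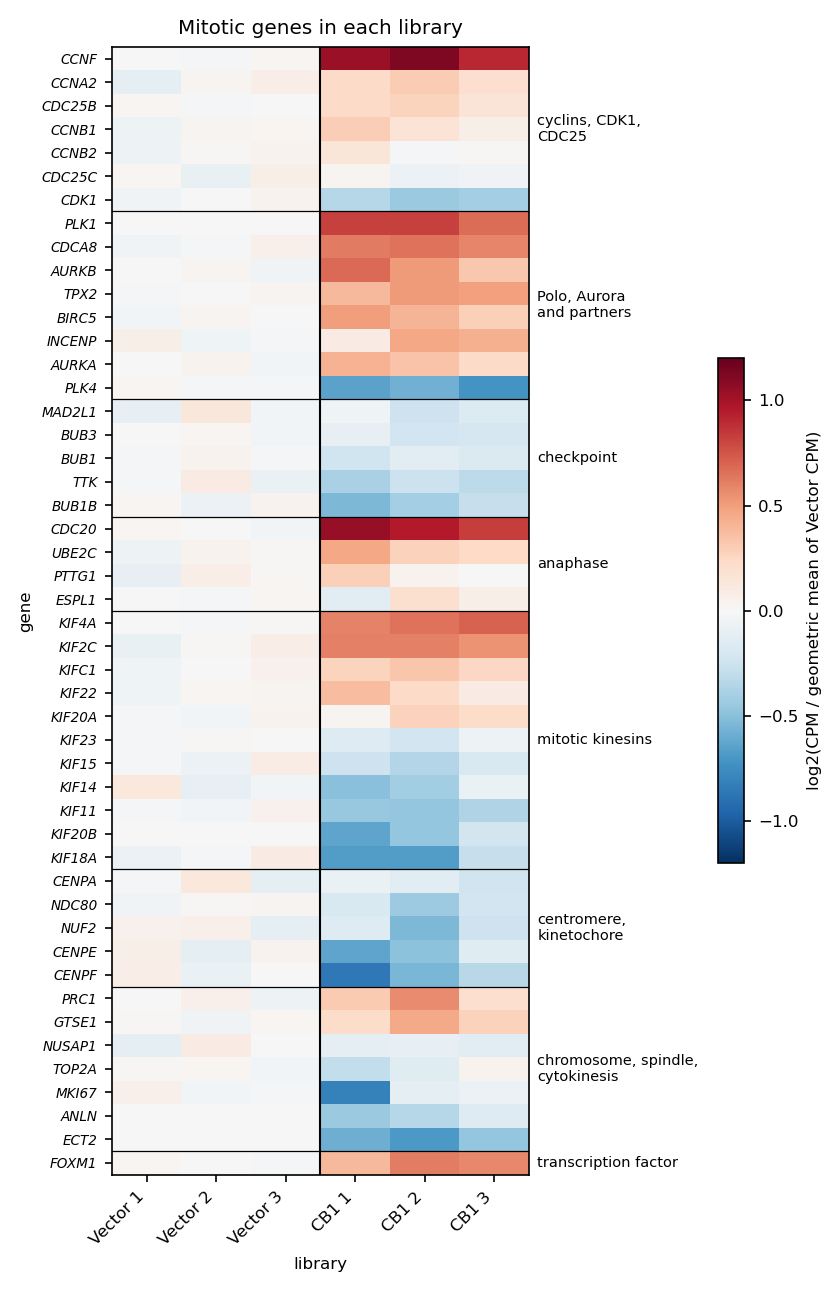
Level of each of the 48 mitotic genes in each library, as the log2 ratio of its CPM to the geometric mean of the 3 Vector libraries; rows are genes grouped by role, columns are libraries, red is above and blue below the Vector mean. The 3 Vector columns stay within -0.12 and 0.14, while the CB1 columns run from -0.85 to 1.12, with Polo and Aurora genes mostly red and checkpoint and kinetochore genes mostly blue.

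Base composition moved with these calls and is given here because it touches every result below. The GC content, the share of G and C in the longest coding transcript of GENCODE release 29, had a median of 54.8% in the 18 genes that rose (42.1 to 59.6%) and 38.8% in the 17 that fell (34.2 to 43.2%). Of the 24 members under 45% GC, 1 rose and 17 fell, whereas of the 24 at or over 45%, 17 rose and none fell. The same direction ran through the whole transcriptome. Among 5642 tested genes under 45% GC, 7.32% were higher and 44.0% lower, and among 9644 at or over it 34.4% were higher and 14.5% lower. Across the 48 genes Spearman's rho between GC content and log2 change was 0.82, and across 15286 genes it was 0.39. These describe genes measured in the same libraries, which are not independent replicates. Within single libraries rho was taken between GC content and the deviation from the Vector mean. It lay between -0.020 and 0.0093 in the 3 Vector libraries and at 0.75, 0.84 and 0.79 in CB1 replicates 1, 2 and 3. Each CB1 library thus differed from the Vector mean along GC content. That baseline takes out any trend the Vector libraries share, so these values cannot place the trend in either group. Members were therefore also tested after the GC trend of each library had been removed, an alternative chosen after seeing the data that takes away any real change that follows GC content as well. It left 15 genes higher and 4 lower (edgeR, beside 21% and 21.1% of all genes), of which 13 and 4 had been called the same way before. The 4 were PLK4, ECT2, CENPF and BUB1B. CCNB1 and TOP2A were newly higher. Among the calls it ended, CDC25B and KIF22, which had risen, changed sign, as did BUB1, BUB3, KIF14 and NUF2, which had fallen.

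**Figure D2:**
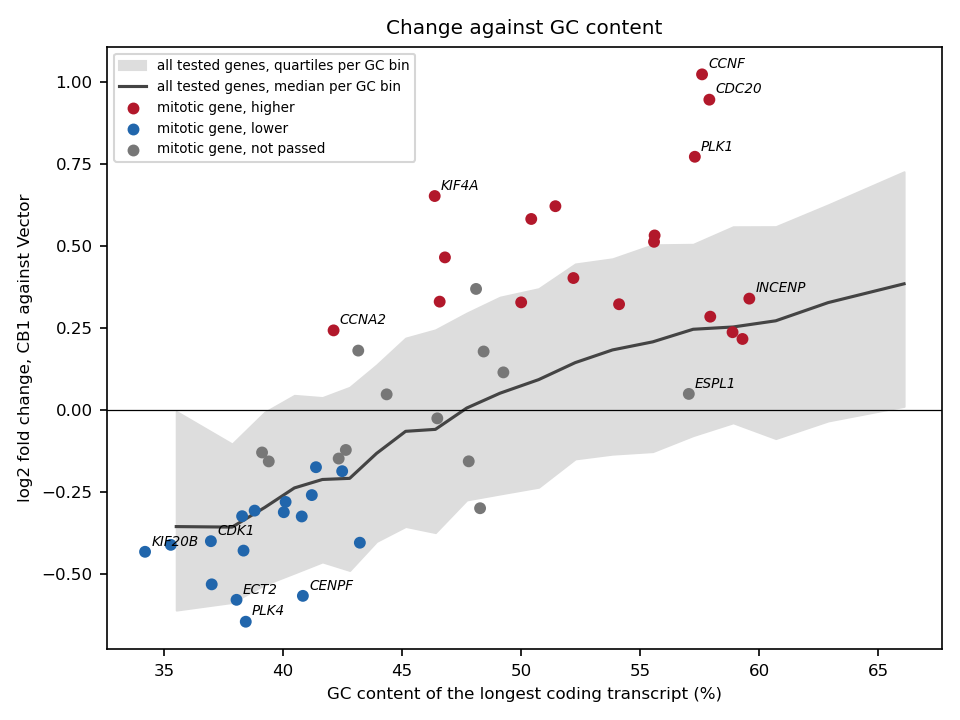
Log2 fold change of CB1 against Vector (vertical) against the GC content in percent of the longest coding transcript (horizontal); points are the 48 mitotic genes, coloured by edgeR call, and the grey line and band are the median and quartiles of all tested genes in 20 GC bins. The line runs from -0.35 in the bin of lowest GC content to 0.38 in the highest, and the red points except CCNA2 lie to the right of all blue ones, with CCNF, CDC20, PLK1 and KIF4A among those above the band.

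The genes of the cyclin and CDK1 module divided. CCNF and CCNA2 rose with the phosphatase CDC25B, CDK1 fell, and CCNB1, CCNB2 and CDC25C did not pass. CCNF encodes cyclin F, an F-box protein that gives a ubiquitin ligase its targets and binds no cyclin-dependent kinase (chromosome 16, 2429394 to 2458854, plus strand; this and all positions below are those of the deposited tables on GRCh38). Listed from here on in the order of replicates 1, 2 and 3, its levels were 35.97, 35.3 and 36.5 CPM in Vector and 73.4, 78.1 and 67.3 CPM in CB1. All CB1 libraries lay far above all Vector libraries, and the mean went from 35.9 ± 0.632 to 72.9 ± 5.43 CPM (SD, n = 3), a log2 change of 1.02 (SE 0.081, adjusted p = 2.00e-06 by edgeR). CDK1, the catalytic partner of the mitotic cyclins (chromosome 10, 60778331 to 60794852, plus strand), had 194, 198 and 206 CPM in Vector and 158, 146 and 149.9 CPM in CB1. All 3 CB1 libraries were below all Vector libraries, with a log2 change of -0.40 (SE 0.067, adjusted p = 3.89e-04 by edgeR), which was -0.031 with the GC trend removed (edgeR adjusted p = 0.744).

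CCNB1 encodes cyclin B1, whose protein and transcript the study examined in drug-treated cells and not under overexpression of CB1. It lies on chromosome 5, 69167010 to 69178245, plus strand. Its levels were 259, 277 and 275 CPM in Vector and 332, 303 and 284 CPM in CB1. The groups did not overlap, but CB1 replicate 3 lay close to the highest Vector library, and a log2 change of 0.18 (SE 0.075, adjusted p = 0.0604 by edgeR) missed the threshold. It was below it without CB1 replicate 1 (edgeR adjusted p = 0.0386) or 3 (0.0167), with median-of-ratios scaling (0.0478), in DESeq2 (0.0443) and with the GC trend removed (0.00239), and with quantile-normalized FPKM the sign turned, to -0.089. CCNA2, the cyclin that partners kinases in S and G2 phase, was 1.18-fold higher at a GC content of 42.1%, the 1 member under 45% that rose, and its log2 change of 0.24 became 0.47 with the GC trend removed. Its call was lost without Vector replicate 1 or 2 or CB1 replicate 2, with total-count scaling, with no abundance minimum, on TPM and on quantile-normalized FPKM, where its log2 change was lowest, at 0.078. CDC25B, which removes the inhibitory phosphates from CDK1, was 1.16-fold higher, a call lost under the same 4 settings and without any 1 of the Vector libraries or CB1 replicate 2. CCNB2, a further B-type cyclin, and CDC25C, a further activating phosphatase, had log2 changes of 0.048 and -0.025, and their groups overlapped. After removal of the GC trend CCNF, CCNA2 and CCNB1 were the 3 genes of the 7 called, all higher.

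All 8 genes of the Polo and Aurora kinases and their partners were called, 7 higher and PLK4 lower, and 6 and 1 of them remained after removal of the GC trend. Among all genes tested 24.4% were higher and 25.4% lower, and 21% and 21.1% after that removal. PLK1 (chromosome 16, 23677656 to 23690367, plus strand), which acts from mitotic entry to cytokinesis, had 104, 104 and 104 CPM in Vector and 184, 183 and 165 CPM in CB1. The CB1 libraries stood clear of the Vector libraries, which were almost equal, and the mean rose from 104 ± 0.288 to 178 ± 10.7 CPM (SD, n = 3), a log2 change of 0.77 (SE 0.071, adjusted p = 5.15e-06 by edgeR). PLK4, the distant relative that starts the duplication of centrioles (chromosome 4, 127880861 to 127899195, plus strand), had 45.7, 44.6 and 44.6 CPM in Vector and 28.7, 30.2 and 27.4 CPM in CB1. No library overlapped, and the mean fell from 44.9 ± 0.612 to 28.8 ± 1.43 CPM (SD, n = 3), with a log2 change of -0.64 (SE 0.079, adjusted p = 3.71e-05 by edgeR). The 2 Polo kinases thus moved in opposite directions, PLK1 at 57.3% and PLK4 at 38.4% GC, and both calls held with the GC trend removed, at log2 changes of 0.55 and -0.31.

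The chromosomal passenger complex, which joins Aurora B to INCENP, survivin and borealin at centromeres, was higher in all of its 4 genes. CDCA8, which encodes borealin (chromosome 1, 37692418 to 37709719, plus strand), had 65.5, 66.4 and 70.1 CPM in Vector and 104, 106 and 101 CPM in CB1, a 1.54-fold rise with a log2 change of 0.62 (SE 0.07, adjusted p = 2.18e-05 by edgeR). AURKB, the kinase itself (chromosome 17, 8204733 to 8210600, minus strand), had 82.3, 83.5 and 79.7 CPM in Vector and 131, 116 and 102 CPM in CB1. Its CB1 libraries spread more widely than its Vector libraries but did not reach them, and its log2 change was 0.51 (SE 0.09, adjusted p = 5.02e-04 by edgeR). BIRC5, which encodes survivin (chromosome 17, 78214186 to 78225636, plus strand), had 117, 122 and 118 CPM in Vector and 168, 158 and 145 CPM in CB1, with a log2 change of 0.40 (SE 0.074, adjusted p = 6.85e-04 by edgeR). INCENP, the scaffold, was 1.27-fold higher, with CB1 replicate 1 at 87.8 CPM close to the highest Vector library at 85.8 CPM. Its call was lost without Vector replicate 2 or CB1 replicate 2, on TPM, on quantile-normalized FPKM and after removal of the GC trend (log2 change 0.083), where the other 3 genes kept theirs.

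TPX2, which activates Aurora A on spindle microtubules (chromosome 20, 31739271 to 31801805, plus strand), had 417, 421 and 432 CPM in Vector and 555, 605 and 593 CPM in CB1. The lowest CB1 library lay well above the highest Vector library, with a log2 change of 0.46 (SE 0.065, adjusted p = 9.95e-05 by edgeR). AURKA, which encodes Aurora A, was 1.26-fold higher without overlap. Both genes have GC contents near the middle of the members (46.8% and 46.6%), and their log2 changes with the GC trend removed, 0.50 and 0.37, were close to those without. The call on TPX2 was lost with quantile-normalized FPKM (limma adjusted p = 0.144).

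**Figure D3:**
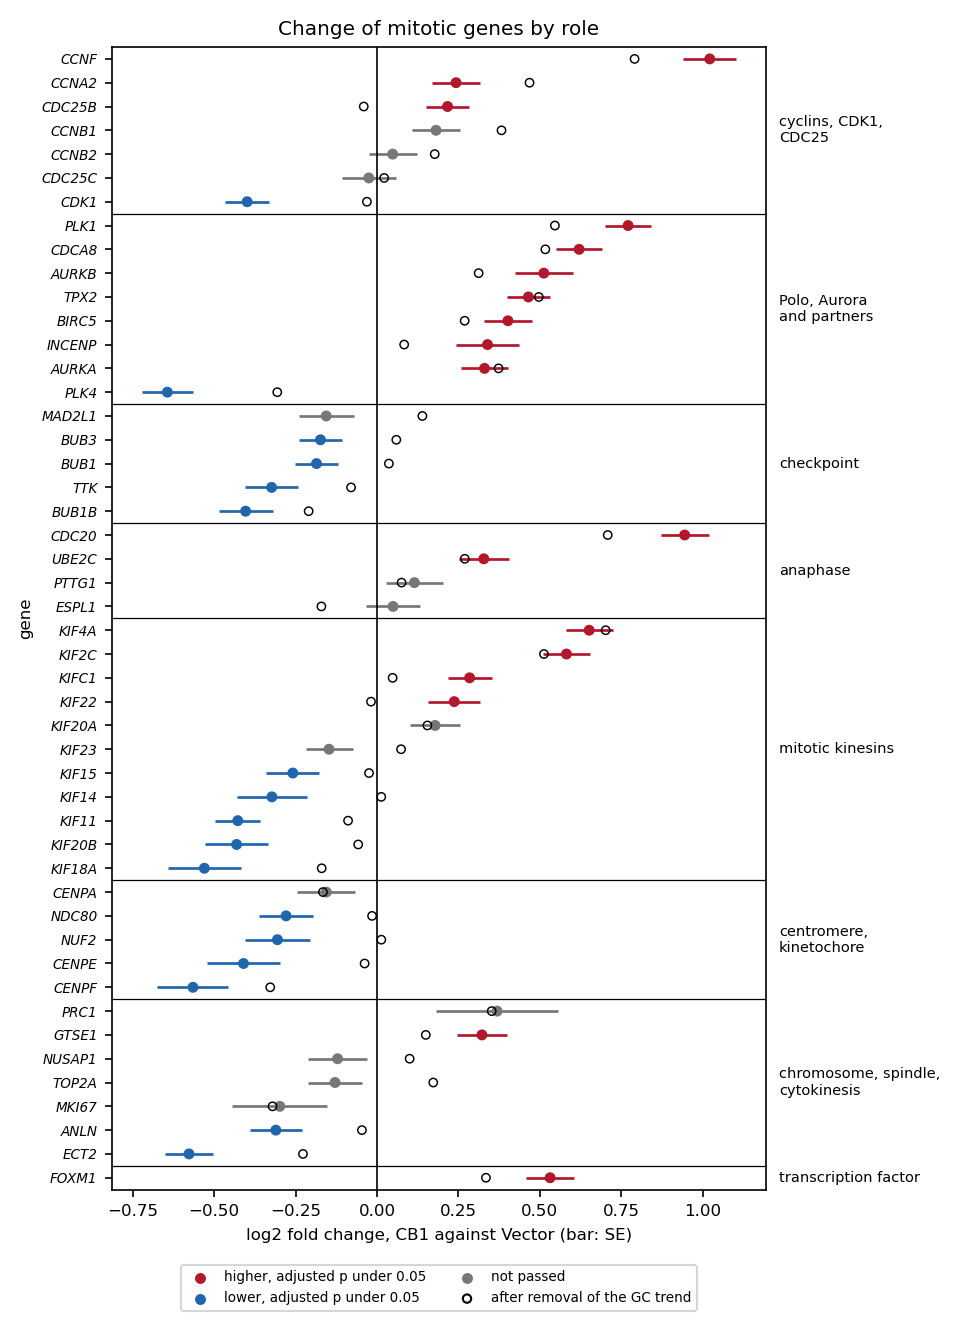
Log2 fold change of CB1 against Vector (horizontal) for each of the 48 mitotic genes, grouped by role (vertical); filled points with bars are the edgeR estimate and its SE, red for higher, blue for lower and grey for not passed, and open circles are the estimate after removal of the GC trend. In the Polo and Aurora group 7 of 8 points lie to the right of 0, in the checkpoint and centromere groups all 10 lie to the left, and the open circles of the latter lie nearer to 0 or beyond it for all but CENPA.

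Of the 5 genes of the spindle assembly checkpoint, TTK, BUB1, BUB1B and BUB3 fell and MAD2L1 did not pass, beside 25.4% of all genes tested that were lower. Removal of the GC trend left the call on BUB1B, and the median log2 change of the 5 genes went from -0.19 to 0.037. BUB1B encodes BUBR1, a part of the complex that inhibits the anaphase-promoting complex (chromosome 15, 40161023 to 40221136, plus strand). Its levels were 82.4, 77.2 and 83.1 CPM in Vector and 55.8, 60.9 and 66.7 CPM in CB1, without overlap and with a log2 change of -0.40 (SE 0.083, adjusted p = 0.00151 by edgeR). TTK, the MPS1 kinase that sets the checkpoint going (chromosome 6, 80003887 to 80042527, plus strand), had 51.6, 56.4 and 49.8 CPM in Vector and 40.03, 43.8 and 42.2 CPM in CB1, with a log2 change of -0.32 (SE 0.081, adjusted p = 0.00543 by edgeR). BUB1, a kinetochore kinase, was 1.14-fold lower and BUB3, which carries BUB1 and BUBR1 to kinetochores, was 1.13-fold lower. Each of these last calls was lost without any 1 of the 3 Vector libraries and in DESeq2, and that on BUB3 also without CB1 replicate 2 or 3 and with median-of-ratios scaling. MAD2L1, which encodes the MAD2 protein that captures CDC20, had a log2 change of -0.16 (SE 0.084, adjusted p = 0.143 by edgeR) with overlapping groups. It was called lower without CB1 replicate 1 (edgeR adjusted p = 0.00324), with total-count scaling (0.0311), and with limma on TPM (0.0160) and on quantile-normalized FPKM (0.0467). The 5 genes had GC contents of 39.4 to 43.2%, and of all tested genes under 45% GC 44.0% were lower. With the GC trend removed BUB1B was called (log2 change -0.21, edgeR adjusted p = 0.0364), but not when a block on the replicate number was added to that fit. BUB1, BUB3 and MAD2L1 had log2 changes of 0.037, 0.059 and 0.14 with the GC trend removed.

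CDC20, the protein that the checkpoint restrains, and UBE2C, the enzyme that starts ubiquitin chains for the anaphase-promoting complex, rose, whereas ESPL1 and PTTG1 did not pass. CDC20 (chromosome 1, 43358955 to 43363203, plus strand) had 156, 154 and 149.5 CPM in Vector and 316, 296 and 272 CPM in CB1. The lowest CB1 library was far above the highest Vector library, and the mean went from 153 ± 3.303 to 295 ± 21.8 CPM (SD, n = 3), a log2 change of 0.94 (SE 0.073, adjusted p = 1.73e-06 by edgeR). UBE2C was 1.26-fold higher without overlap, with 127 ± 4.98 FPKM in Vector and 157 ± 14.8 FPKM in CB1 (SD, n = 3). PTTG1, which encodes securin, and ESPL1, which encodes the protease separase that it holds inactive, had log2 changes of 0.11 and 0.049 with overlapping groups, and ESPL1 was called higher without CB1 replicate 1 (edgeR adjusted p = 0.0358). The rises of CDC20 and UBE2C were also called with the GC trend removed, at log2 changes of 0.71 and 0.27, but that of UBE2C was 0.043 and lost its call on quantile-normalized FPKM (limma adjusted p = 0.339), and it was not called with the length trend removed (edgeR adjusted p = 0.0999).

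**Figure D4:**
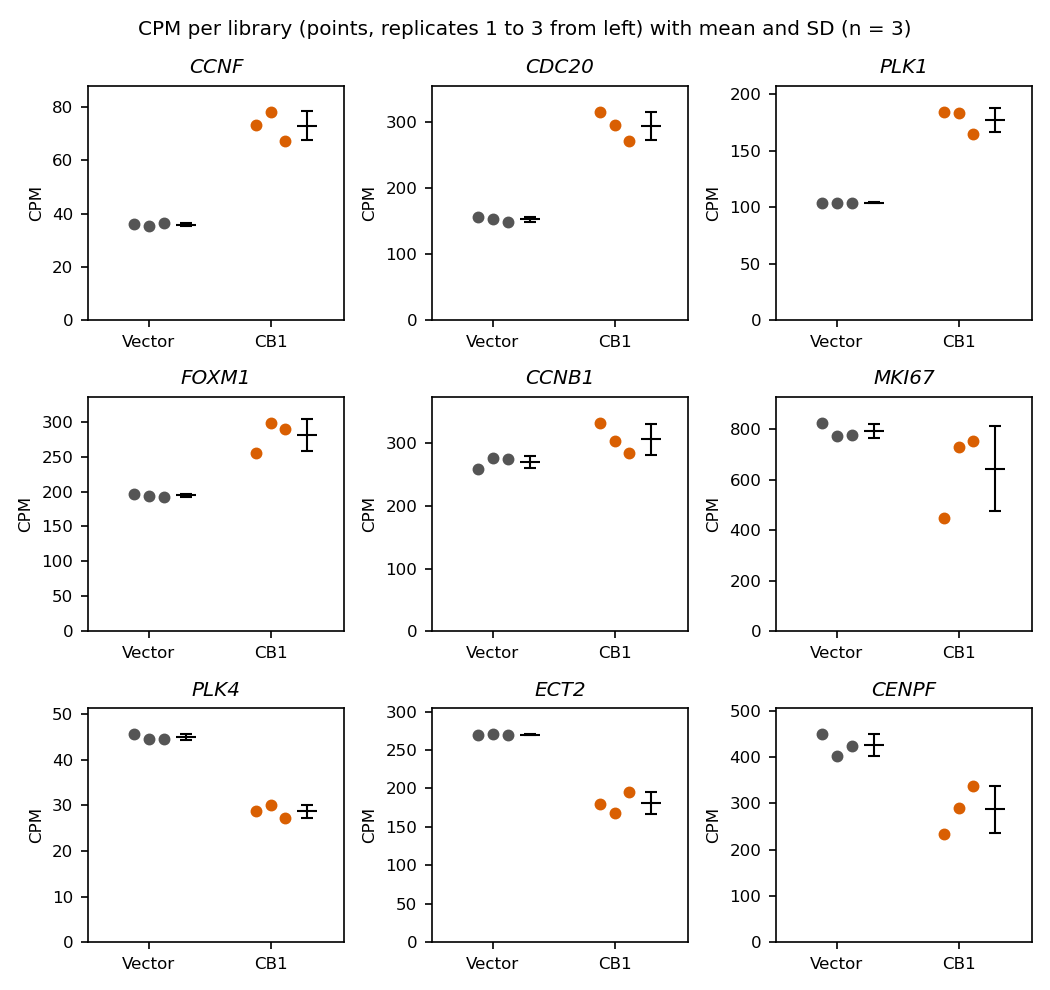
CPM (vertical, from 0) of 9 mitotic genes in the 3 Vector and 3 CB1 libraries (horizontal); each point is a library, and the bar beside each group is its mean with the SD (n = 3). CCNF, CDC20, PLK1 and FOXM1 are higher in every CB1 library, PLK4, ECT2 and CENPF are lower in every one, and MKI67 has 1 CB1 library, at 451 CPM, far below the other 2.

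The mitotic kinesins split within the family. Of 11 motors, 4 rose (KIF4A, KIF2C, KIFC1 and KIF22), 5 fell (KIF18A, KIF11, KIF20B, KIF14 and KIF15), and KIF20A and KIF23 did not pass. Among all genes tested 24.4% were higher and 25.4% lower. KIF4A, a chromokinesin that works with PRC1 at the spindle midzone (chromosome X, 70290090 to 70420832, plus strand), had 49.2, 48.95 and 49.8 CPM in Vector and 74.3, 77.7 and 80.4 CPM in CB1, with a log2 change of 0.65 (SE 0.073, adjusted p = 1.96e-05 by edgeR). KIF2C, also called MCAK, which takes microtubules apart at their ends (chromosome 1, 44739818 to 44767767, plus strand), had 82.1, 88.1 and 92.6 CPM in Vector and 133, 133 and 127 CPM in CB1, with a log2 change of 0.58 (SE 0.072, adjusted p = 4.24e-05 by edgeR). In both genes the CB1 libraries lay close together and above all Vector libraries, and both calls held with the GC trend removed, at 0.70 and 0.51. KIFC1, a minus-end motor that gathers spindle poles, was 1.22-fold higher and KIF22, a chromosome-arm motor, 1.18-fold higher, at GC contents of 57.9% and 58.9%. Neither was called with the GC trend removed, on TPM or on quantile-normalized FPKM. The call on KIF22 was also lost without any 1 of the Vector libraries or CB1 replicate 2, with total-count scaling, with no abundance minimum, and with limma on log2(FPKM + 1) and log2(FPKM + 0.1).

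KIF18A, which damps the movement of chromosomes at the spindle centre (chromosome 11, 28020620 to 28108308, minus strand), was lowest relative to Vector among the motors, with 37.9, 39.1 and 42.7 CPM in Vector and 24.96, 25.01 and 32.9 CPM in CB1. CB1 replicates 1 and 2 were far below Vector and replicate 3 was nearer to it, and the log2 change was -0.53 (SE 0.11, adjusted p = 0.00171 by edgeR). KIF11, the Eg5 motor that pushes the poles apart (chromosome 10, 92593286 to 92655395, plus strand), had 135, 135 and 143 CPM in Vector and 100.1, 99.6 and 107 CPM in CB1, without overlap, and its log2 change was -0.43 (SE 0.069, adjusted p = 2.83e-04 by edgeR). KIF20B, a motor of cytokinesis (chromosome 10, 89701610 to 89774939, plus strand), had 77.8, 77.6 and 77.5 CPM in Vector and 50.2, 56.1 and 66.5 CPM in CB1, and its log2 change was -0.43 (SE 0.096, adjusted p = 0.00262 by edgeR). Its CB1 libraries differed among themselves by more than its Vector libraries, and all were lower. KIF14, a midbody motor, was 1.25-fold lower, the 1 call among the members whose groups overlapped, with CB1 replicate 3 at 83.5 CPM above Vector replicate 2 at 82.6 CPM. KIF15, which can stand in for Eg5, was 1.196-fold lower. Both of these calls were lost without Vector replicate 1 or 3 and without CB1 replicate 2, and that on KIF14 also on quantile-normalized FPKM. KIF20A and KIF23, motors of the central spindle, had log2 changes of 0.18 and -0.15. Without CB1 replicate 1, KIF20A was called higher at a log2 change of 0.25 (edgeR adjusted p = 6.66e-05). KIF23 was called lower without CB1 replicate 1 (edgeR adjusted p = 0.0405) or 3 (0.0419), with total-count scaling (0.0229), and with limma on TPM (0.0175) and on quantile-normalized FPKM (0.0368), but turned to 0.074 with the GC trend removed. The 5 motors that fell had GC contents of 34.2 to 41.2%, and none of them was called with the GC trend removed.

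At the centromere and kinetochore, 4 of 5 genes fell and none rose, beside 25.4% of all genes tested that were lower and 24.4% that were higher. The GC contents of the 5 genes ran from 35.3 to 47.8%, and of all tested genes under 45% GC 44.0% were lower and 7.32% higher. CENPF, a large protein of the outer kinetochore (chromosome 1, 214603195 to 214664588, plus strand), had 449, 401 and 424 CPM in Vector and 235, 290.0 and 337 CPM in CB1. The highest CB1 library stayed below the lowest Vector library although the CB1 libraries ranged widely, and the mean fell from 425 ± 23.98 to 287 ± 51.1 CPM (SD, n = 3), a log2 change of -0.57 (SE 0.11, adjusted p = 9.83e-04 by edgeR). CENPE, the kinetochore kinesin that carries chromosomes to the spindle equator (chromosome 4, 103105806 to 103198409, minus strand), had 66.7, 58.7 and 65.2 CPM in Vector and 41.03, 45.1 and 57.3 CPM in CB1. CB1 replicate 3 came close to the lowest Vector library, and the log2 change of -0.41 (SE 0.11, adjusted p = 0.00922 by edgeR) no longer passed without CB1 replicate 2 (edgeR adjusted p = 0.0519). NUF2 and NDC80, partners in the complex that grips microtubules, were 1.24-fold and 1.21-fold lower without overlap, and each call was lost without CB1 replicate 2 and without some Vector libraries. CENPA, the histone H3 variant that marks the centromere, did not pass, at a log2 change of -0.16, but was called lower without CB1 replicate 1 (edgeR adjusted p = 0.0408), with total-count scaling (0.0409), and with limma on TPM (0.0175) and on quantile-normalized FPKM (0.0303). CENPF alone was called with the GC trend removed (log2 change -0.33, edgeR adjusted p = 0.0193).

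Among the proteins of chromosomes, spindle and cytokinesis, ECT2 and ANLN fell, GTSE1 rose, and TOP2A, MKI67, NUSAP1 and PRC1 did not pass. ECT2, the exchange factor that switches on RhoA at the cell equator (chromosome 3, 172750682 to 172821474, plus strand), had 269, 271 and 269 CPM in Vector and 179.8, 168 and 195 CPM in CB1. The Vector libraries were nearly equal and all CB1 libraries were far below them, and the mean fell from 269.8 ± 0.776 to 181 ± 13.9 CPM (SD, n = 3), a log2 change of -0.58 (SE 0.073, adjusted p = 4.56e-05 by edgeR). ANLN, the actin-binding anillin of the contractile ring, was 1.24-fold lower, and GTSE1, a microtubule-binding protein of G2 and M phase, was 1.25-fold higher, both without overlap. With the GC trend removed, ECT2 was still called lower (-0.23) and ANLN and GTSE1 were not called, and GTSE1 also lost its call on TPM and on quantile-normalized FPKM.

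MKI67 encodes the Ki-67 protein that coats mitotic chromosomes and serves as a marker of proliferating cells (chromosome 10, 128096659 to 128126385, minus strand). Its levels were 825, 774 and 779 CPM in Vector and 451, 729 and 754 CPM in CB1. CB1 replicate 1 stood far below every other library, and the log2 change of -0.30 (SE 0.15, adjusted p = 0.109 by edgeR) rested largely on it, at -0.095 (edgeR adjusted p = 0.0867) without that library. MKI67 was called lower without CB1 replicate 3 (edgeR adjusted p = 0.0479) and with no abundance minimum (4.40e-05). Deviations of the members fell with transcript length in all 3 CB1 libraries (Spearman's rho -0.56, -0.34 and -0.27 for replicates 1, 2 and 3), but Vector replicates 1 and 2 also showed rho of 0.42 and -0.46. With a length trend removed from each library, an alternative chosen after seeing the data, 20 members were higher and 14 lower, beside 27.7% and 26.4% of all genes. TOP2A, the topoisomerase that untangles sister chromatids, had overlapping groups and a log2 change of -0.13 (SE 0.082, adjusted p = 0.214 by edgeR). It was called lower without CB1 replicate 3 (edgeR adjusted p = 0.0240) and higher with the GC trend removed (0.0483). NUSAP1, a spindle-binding protein, had a log2 change of -0.12 and was called lower on TPM (limma adjusted p = 0.0330), and PRC1, which bundles the microtubules of the midzone, one of 0.37 from only 47 to 76 counts per library. Other annotated genes overlap 62.2% of the exon bases of NUSAP1 and 58.4% of those of PRC1, so the counts of these genes are uncertain. In the other 46 members the overlapped share was at most 15.9%.

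FOXM1, the transcription factor that helps to switch on the G2 and M genes (chromosome 12, 2857681 to 2877155, minus strand), had 197, 193 and 193 CPM in Vector and 255, 298 and 289.8 CPM in CB1. All CB1 libraries were above all Vector libraries, and the mean rose from 194 ± 2.43 to 281 ± 22.7 CPM (SD, n = 3), a log2 change of 0.53 (SE 0.074, adjusted p = 9.58e-05 by edgeR) that was 0.33 with the GC trend removed (edgeR adjusted p = 0.00403). It shares 15.9% of its exon bases with ITFG2 on the other strand, and the sources used here do not give the strand setting of the counting.

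Per length, UBE2C, TPX2 and CCNB1 were the members with the highest levels in Vector, at 127 ± 4.98, 119 ± 2.34 and 107 ± 4.29 FPKM (SD, n = 3). In CB1 the means were 163 ± 6.82 FPKM for TPX2, 157 ± 14.8 FPKM for UBE2C and 145 ± 12.2 FPKM for CDC20, with overlapping libraries, and 120.3 ± 10.7 FPKM for CCNB1. PRC1, CCNF and CENPE were the members with the lowest, at 0.514 ± 0.0222, 5.77 ± 0.09902 and 6.82 ± 0.443 FPKM. The gene with the largest rise was thus among the least abundant members. Summed over the 48 genes, the level was 7329 ± 6.80 CPM in Vector and 7509 ± 243 CPM in CB1 (SD, n = 3). CB1 replicates 2 and 3, at 7608 and 7687 CPM, lay above the highest Vector library, at 7337 CPM. CB1 replicate 1, at 7232 CPM, lay below all Vector libraries. Abundant genes weigh most in this sum, and its difference between the groups was not tested.

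Beyond the 48 genes, 130 other mitotic genes were grouped by function, and 27 of them rose and 50 fell, with a median log2 change of -0.10. That is 20.8% and 38.5% of them, beside 24.4% and 25.4% of all genes tested and 30.6% and 31% of those with a mean of at least 20 CPM. With the GC trend removed 39 were higher and 15 lower, or 30% and 11.5%, beside 21% and 21.1% of all genes. In the anaphase-promoting complex and its regulators 4 of 17 rose, led by UBE2S, the chain-extending partner of UBE2C, at 1.95-fold, and 3 fell. Of 20 condensin and cohesin genes 10 fell, RAD21, the cleavable cohesin subunit, by 1.48-fold, and 4 rose. Other kinetochore and checkpoint genes fell in 11 and rose in 7 of 33 cases, ZWINT being 1.43-fold lower and CENPM 1.76-fold higher, and other spindle and cytokinesis genes fell in 11 and rose in 5 of 25. Of 9 centriole duplication genes, the pathway of PLK4, 7 fell, CEP192, which brings PLK4 to the centriole, by 1.55-fold, and none rose. Genes that control CDK1 at entry rose in 4 and fell in 5 of 13 cases, with the inhibitory kinase PKMYT1 2.098-fold higher and MASTL, the greatwall kinase, 1.31-fold lower. Among 13 genes listed as the MuvB and B-MYB module 3 rose and 3 fell. That list also holds RBL1, RBL2, E2F4, TFDP1 and the NF-Y genes NFYA, NFYB and NFYC, so it is wider than MuvB with B-MYB. MYBL2, which encodes B-MYB, went from 97.6 ± 3.29 to 257 ± 20.4 CPM (SD, n = 3), a log2 change of 1.39 (SE 0.077, adjusted p = 1.57e-07 by edgeR), more than in any member, and RBL2, the p130 repressor subunit, was 1.86-fold lower. These balances changed with the GC trend removed. The other kinetochore and checkpoint genes then had 15 higher and 3 lower, condensin and cohesin 6 and 2, CDK1 entry control 6 and 2, the MuvB and B-MYB module 5 and 2, the other spindle and cytokinesis genes 3 and 2, and the anaphase-promoting complex 3 and 2. Of the 9 centriole duplication genes, whose median GC content was 40.6%, 2 were then lower, CEP192 and CEP63, and 1 was higher, STIL, which is named because of its value (log2 change 0.31, edgeR adjusted p = 0.0110).

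Away from mitosis, 23 of 41 DNA replication genes rose and 6 fell, or 56.1% and 14.6%, beside 24.4% and 25.4% of all genes, with a median log2 change of 0.26. With the GC trend removed 24 were called higher and 2 lower, or 58.5% and 4.88%, beside 21% and 21.1% of all genes. CDT1, which loads the replicative helicase, was 1.93-fold higher and ORC4, an origin recognition subunit, 1.51-fold lower. Of 10 tested kinesins that carry cargo in interphase, 1 rose and 3 fell. The other 5 of that list (KIF1A, KIF5A, KIF5C, KIF21B and KIF26B) were below the abundance minimum and had higher CPM in every CB1 library than in any Vector library, as did 31.5% of the 2081 genes below the minimum with a mean of at least 10 counts, while 15.3% of these were lower without overlap. KIF1A had 18, 15 and 27 counts in Vector and 117, 133 and 151 counts in CB1, whereas KIF26B had 7 to 13 counts in Vector and 13 to 25 counts in CB1. KIF1C was 1.47-fold higher and KIF3C 1.62-fold lower, so motors outside mitosis were called in both directions as well. Whether the lists differ from one another was not tested.

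**Figure D5:**
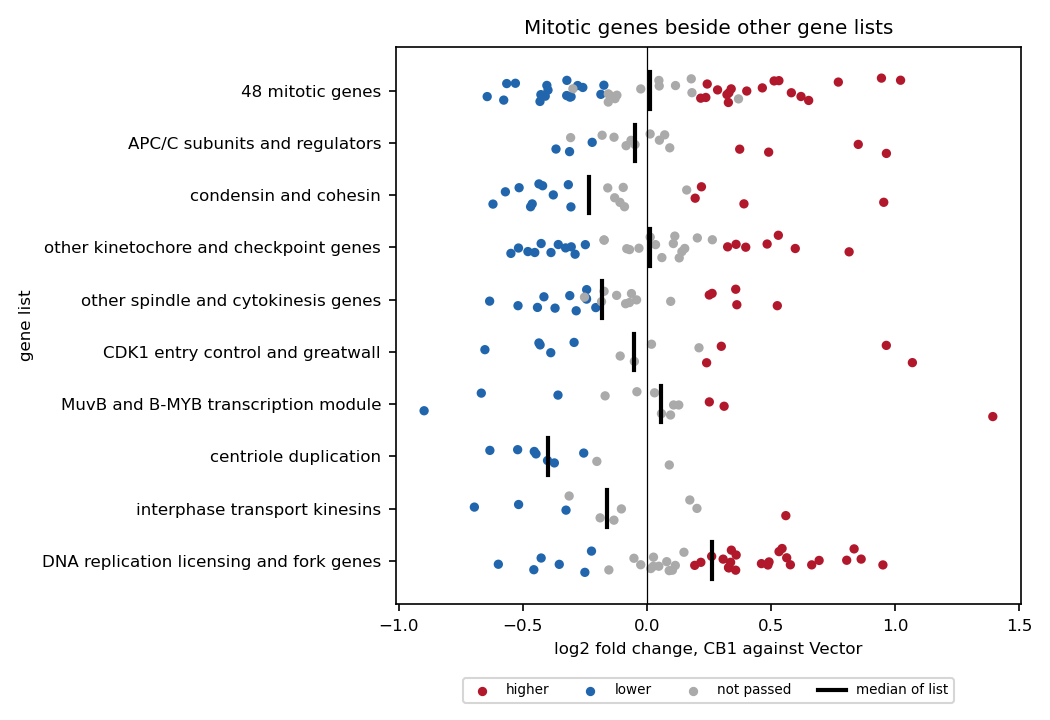
Log2 fold change of CB1 against Vector (horizontal) for the 48 mitotic genes and the tested genes of 9 other lists (vertical); each point is a gene, red for higher, blue for lower and grey for not passed, and the black bar is the median of the list. The median lies at 0.01 for the 48 genes, at -0.40 for centriole duplication and at 0.26 for DNA replication, and red and blue points occur together in every list but centriole duplication, which has no red point.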

How the data were processed

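RNA of 6 MDA-MB-231 libraries was measured, 3 Vector and 3 CB1, grouped by their titles. The study's methods give oligo(dT) selection, an NEBNext Ultra library kit and the use of exonic reads that mapped uniquely. HISAT2 2.0.5 and featureCounts 1.5.0-p3 are named in the submitters' processing notes. The deposited counts are whole, unnormalized reads per gene. FPKM values, also deposited, were scaled by the authors to gene length and library total. Coordinates equalled GENCODE release 29 on GRCh38 for 58724 of 58735 genes.

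The 48 genes and all lists were chosen with earlier results of these data known. With a minimum mean of 0.5 FPKM, 15289 genes entered edgeR's two-sided quasi-likelihood test on counts with TMM scaling and Benjamini-Hochberg adjustment over all of them, at a threshold of 0.05. CPM values are counts per 1000000 of the TMM-scaled library. All 6 library values were given for those 10 members past the threshold that rose most and the 10 that fell most. They were also given for CCNB1, CCNF and MKI67, which the study measured under drug treatments. From other lists at most 2 genes per direction, by smallest p, were named. The rule for printed promoters was the 3 largest rises and 3 largest falls with a sequence, of which 1 is not reported here, taking for each gene the window nearest to its 5′ end in the tables. For the GC trend, which 15286 genes with a transcript sequence entered, an offset per library over 20 bins of GC content was added to the same test. Intervals of motif shares cover the number of promoters only.

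Alternatives covered scaling, abundance minimum, DESeq2, limma on log2(FPKM + 1) and log2(FPKM + 0.1), on TPM and on quantile-normalized FPKM, each library left out in turn, a block on the replicate number, a threshold of 0.01, and other promoter windows. Versions were edgeR 4.0.16, limma 3.58.1 and DESeq2 1.42.0 in R 4.3.3, and Python 3.11.15 with pandas 2.3.3, scipy 1.17.1 and matplotlib 3.10.9. In simulated data for CB1 against Vector with 15289 genes, edgeR recovered 86% of 100 genes shifted 1.5-fold and 100% of 100 shifted 2-fold. There were 4 false calls of 190. The simulation gave every gene the common coefficient of biological variation in both groups and held no GC trend. These rates therefore need not hold for the real libraries, where most members changed by less than 1.5-fold. Reads were not analysed here.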

Additional observations from a re-analysis of the deposited data

How the results depend on the processing

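Of the 35 calls, 10 rises and 10 falls passed under every alternative planned, beside 61.2% of all genes called higher and 70% of those called lower, and no called gene changed sign under any of them. Members higher in CB1 numbered 18, with 10 on quantile-normalized FPKM (21.9% of all genes). They numbered 14 to 21 with each library left out in turn (19.6 to 27.6%). Members lower numbered 17, with 11 at an adjusted p under 0.01 (18.6% of all genes) and 4 with the GC trend removed (21.1%). With each library left out they numbered 11 to 20 (20.6 to 28.9%), the lowest without CB1 replicate 2. Of the 130 other mitotic genes, 27 were higher and 50 lower as reported (20.8% and 38.5%, beside 24.4% and 25.4% of all genes). Those higher were 17 with limma on TPM (16.8% of all genes) and 39 with the GC trend removed (21%), and lay between these under the other alternatives. Those lower were 15 with the GC trend removed (21.1% of all genes) and 14 when the block was added to it (18.6%), and were more under the others. Limma on TPM moved the median log2 change of all genes to -0.12. The GC alternatives also remove any change that follows base composition, and the cause of these shifts was not tested.

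Replicate numbers did not pair the libraries, since same-numbered deviations correlated at -0.12, -0.058 and -0.032. A replicate block gave 16 members higher and 16 lower (22.4% and 24.3% of all genes), with CDC25B, BUB1, BUB3 and KIF22 no longer called and MKI67 called lower (edgeR adjusted p = 0.0403). The block with the GC trend removed gave 14 higher and 3 lower (17.9% and 18.6%). Those lower were PLK4, ECT2 and CENPF, and BUB1B was no longer called.

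Within 50 bases of the start site the CHR letters stood in 70.7% of the members' promoters (5.51% of those of protein-coding genes), CCAAT in 26.8% (10.2%) and an E2F site in 9.76% (6.36%, inside the members' 95% Wilson interval of 3.86 to 22.5%). On the given strand alone CCAAT stood in 39.0% (21.1%) and an E2F site in 17.1% (9.54%, inside 8.53 to 31.3%).

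Signs changed as follows. On quantile-normalized FPKM the log2 change was -0.089 for CCNB1, -0.092 for CCNB2 and -0.052 for PTTG1. On TPM it was -0.082 for CCNB2, -0.085 for ESPL1 and -0.018 for PTTG1, and with total-count scaling -0.030 for CCNB2 and -0.027 for ESPL1. With each library left out in turn CDC25C ran from -0.067 to 0.0091, positive without Vector replicate 3, and ESPL1 from -0.028 to 0.13, negative without CB1 replicate 2. With the length trend removed it was 0.060 for BUB3, 0.015 for MAD2L1, -0.10 for PTTG1 and 0.049 for TOP2A. With the GC trend removed, and in that fit with the replicate block, it was -0.041 and -0.041 for CDC25B, 0.022 and 0.023 for CDC25C, 0.037 and 0.036 for BUB1, 0.059 and 0.057 for BUB3, 0.14 and 0.14 for MAD2L1, -0.17 and -0.18 for ESPL1, 0.013 and 0.011 for KIF14, -0.018 and -0.020 for KIF22, 0.074 and 0.074 for KIF23, 0.013 and 0.0079 for NUF2, 0.17 and 0.17 for TOP2A, and 0.10 and 0.10 for NUSAP1.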
